A study of Mus musculus with 6 samples.

Results

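mmu-miR-146a-5p, mmu-miR-146b-5p and mmu-miR-155-5p are miRNAs of the innate immune response whose genes are known to be switched on by the transcription factor NF-kB. They were picked by name, and these 3 rows stand among 902 mature miRNA rows and 61949 annotated rows of the count table. Small RNAs were sequenced from extracellular vesicles (EVs) of 2 primary mouse cultures, with 3 libraries each. Astrocyte EVs came from cortical astrocytes of CD1 pups taken at postnatal day 4, with the flasks shaken to remove microglia and oligodendrocytes and the last medium holding 2% fetal bovine serum. NSC EVs came from neural stem cells (NSCs), labelled as neonatal, which had been grown from the subventricular zone of CD1 mice in a medium not given in the sources used here. Neither group carried a transgene or a treatment, and cells of both sexes were pooled. The labels do not say whether replicates were separate cultures, so that p-values measure the spread between these libraries, which may be technical.

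NF-kB waits in the cytoplasm, bound to inhibitors of the IkB family, until a toll-like receptor (TLR) or a cytokine receptor signals through adaptor proteins and the IKK kinases. Once in the nucleus it turns on inflammatory genes together with the genes of miR-146 and miR-155. miR-146 represses the adaptors Irak1 and Traf6 and so acts as a brake on the same pathway, whereas miR-155 represses other inhibitors of signaling, Socs1 and Inpp5d among them, and is known for sustaining inflammation. In the brain these miRNAs are best known from microglia and from reactive astrocytes.

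The mature sequences are shown because the first 2 differ so little that their reads are hard to tell apart, while the third is unrelated to them. The sequences are those of RefSeq on GRCm38.p6, where all 3 names were matched, and capitals mark the seed, bases 2 to 8 from the 5′ end, with which a miRNA pairs to its targets.
miR-146a-5p: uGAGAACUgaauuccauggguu
miR-146b-5p: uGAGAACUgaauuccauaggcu
miR-155-5p: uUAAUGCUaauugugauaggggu
miR-146a-5p and miR-146b-5p were identical in 20 of 22 bases, including the first 17, and differed by G18A and U21C (the base of miR-146a-5p, its position from the 5′ end, and the base of miR-146b-5p). Of the 1738 mature mouse miRNAs in the RefSeq table, the seed GAGAACU belonged only to this pair and the seed UAAUGCU only to miR-155-5p, which is 23 bases long.

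The loci lie on separate chromosomes, and the positions in the count table (mm10) were the same as those of RefSeq. miR-146a-5p is on chromosome 11 from 43374435 to 43374456 on the minus strand, where the GENCODE vM21 annotation of the same assembly has an exon of the miRNA gene Mir146 and no other gene. miR-146b-5p is on chromosome 19 from 46342790 to 46342811 on the plus strand, in the gene Mir146b and in an intron of the protein-coding gene Mfsd13a. miR-155-5p is on chromosome 16 from 84714143 to 84714165 on the plus strand, in an exon of its noncoding host gene Mir155hg. The hairpins are shown with the mature 5p arm in capitals, since the 2 miR-146 precursors differ widely outside that arm.
Mir146 hairpin: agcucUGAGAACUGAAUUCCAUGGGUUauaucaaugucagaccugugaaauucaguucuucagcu
Mir146b hairpin: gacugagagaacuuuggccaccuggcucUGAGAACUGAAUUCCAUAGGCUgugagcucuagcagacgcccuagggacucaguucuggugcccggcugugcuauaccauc
Mir155 hairpin: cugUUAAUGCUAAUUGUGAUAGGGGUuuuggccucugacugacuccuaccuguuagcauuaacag
Each of these hairpins has its own row in the table, and for all 3 the hairpin row held the same counts as the mature row in 6 of 6 libraries. Among all hairpins with a mature row inside them, taken with no minimum count, 323 of 670 held the same counts as such a row. The 3p arms were not analysed here.

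The libraries held 44620985 to 111851274 counts in all, of which 177093 to 399211 fell on mature miRNAs. These totals exceed the approximate number of reads per sample that the authors state, for a reason that was not tested. Shares of all counts can therefore not be taken as shares of reads. A count of 0 allows up to 3 counts, or 7.51 to 16.9 counts per 1e+06 mature miRNA counts (CPM) before normalization. Astrocyte EV replicate 3 stood apart from the other 2 libraries of its group, with a chi-square per degree of freedom over mature miRNAs of 175 and 183, against 12.3 between replicates 1 and 2. In the rows of protein-coding genes, 2 of 8 astrocyte marker genes were higher in astrocyte EVs by edgeR's quasi-likelihood test, namely Gfap (log2 difference 1.85) and Aldoc (1.32), beside 5.54% of all non-hairpin rows called higher and 4.24% called lower. The other 6 did not pass, with log2 differences from -1.15 (Slc1a3) to 0.56 (Glul), and the median of the 8 was 0.15. Of the stem and progenitor markers 7 were tested and 0 passed in either direction. At an unadjusted p under 0.05 there were 2 of them, Mki67 of dividing cells with a log2 difference of 1.08 and Dcx of young neurons with -0.78. At those shares over all rows, a count of 0 among so few markers says little about the cells of origin. Levels in the text are CPM normalized by TMM (a scaling between libraries that assumes that most miRNAs do not change) unless shares are named, and intervals of shares cover counting error only.

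miR-146b-5p and miR-155-5p were higher in astrocyte EVs than in NSC EVs, 13.6-fold and 7.60-fold (95% intervals of the log2 difference 2.86 to 4.67 and 1.59 to 4.27). miR-146a-5p was 1.99-fold higher, with an interval from no change to 3.96-fold, and did not pass the test. miR-146b-5p made up most miR-146 counts of astrocyte EVs, while its counts in NSC EVs were on both sides of those of miR-146a-5p. Of all 256 mature miRNAs tested, 22.3% were called higher in astrocyte EVs, so that 2 of 3 members called is to be read against that share.

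miR-146b-5p, the more abundant miR-146 of astrocyte EVs, had 2366, 1886 and 2771 counts in astrocyte EV replicates 1, 2 and 3 and 287, 107 and 116 counts in NSC EV replicates 1, 2 and 3. After normalization these were 11240, 9502 and 8721 CPM against 962, 481 and 718 CPM. Every astrocyte EV library lay well above every NSC EV library, and on this normalized scale the 3 astrocyte EV libraries were close to one another. The means were 9821 ± 1290 CPM and 720.3 ± 241 CPM (SD, n = 3 each), and edgeR gave a log2 difference of 3.77 with a standard error of 0.39 (adjusted p = 8.95e-04 over all mature miRNAs tested). Ordered by count within its library, it was the 20th to 23rd most abundant mature miRNA of astrocyte EVs and the 72nd to 109th of NSC EVs.

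miR-155-5p, which is processed from the transcript of Mir155hg, had counts of 406, 498 and 222 in astrocyte EVs, with 84, 55 and 23 in NSC EVs. The normalized levels were 1929, 2509 and 699 CPM in astrocyte EVs and 282, 247 and 142 CPM in NSC EVs. Replicate 3 was the lowest library of astrocyte EVs by far, although it was still above the highest NSC EV library. Group means were 1712 ± 924 CPM and 224 ± 72.6 CPM (SD, n = 3 each), with a log2 difference of 2.93 (standard error 0.57, adjusted p = 0.00617 by edgeR). The call was lost without NSC EV replicate 2 (log2 difference 2.74, adjusted p = 0.0522 by edgeR).

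miR-146a-5p, the miR-146 best known from macrophages and microglia, had 361, 404 and 525 counts in astrocyte EVs and 423, 165 and 89 counts in NSC EVs. This was 1715, 2035 and 1652 CPM against 1418, 741 and 551 CPM after normalization. The astrocyte EV libraries agreed closely on this scale, while the NSC EV libraries were spread widely, with replicate 1 not far below astrocyte EVs. The means were 1801 ± 206 CPM and 903 ± 456 CPM (SD, n = 3 each), and the log2 difference of 0.99 (standard error 0.42) had an adjusted p of 0.0896 by edgeR. Without NSC EV replicate 1 it was 1.69 with an adjusted p of 0.0273, and without NSC EV replicate 2 it was 0.61 with an adjusted p of 0.462. On the normalized scale the libraries of the EV types did not overlap for any of the 3 members, which was so for 28.5% of all tested mature miRNAs in this direction.

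**Figure D1:**
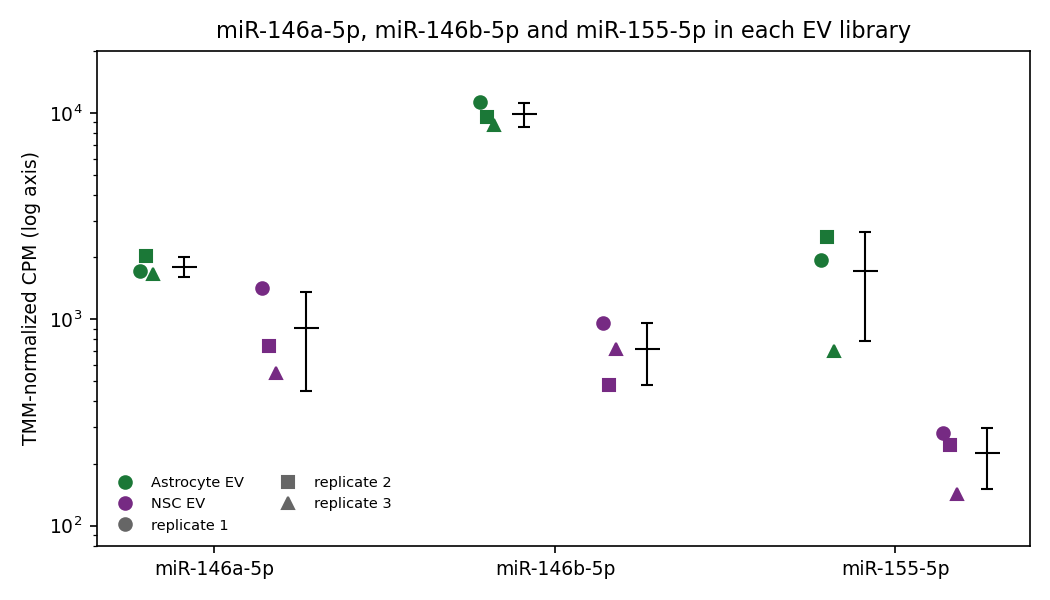
TMM-normalized CPM on a log axis of the 3 miRNAs, where each point is a library, colored green (astrocyte EVs) or purple (NSC EVs) and shaped by replicate, and black lines for the mean and SD of each group. miR-146b-5p lies between 8721 and 11240 CPM in astrocyte EVs and between 481 and 962 CPM in NSC EVs, and the triangle of miR-155-5p at 699 CPM is astrocyte EV replicate 3.

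**Figure D2:**
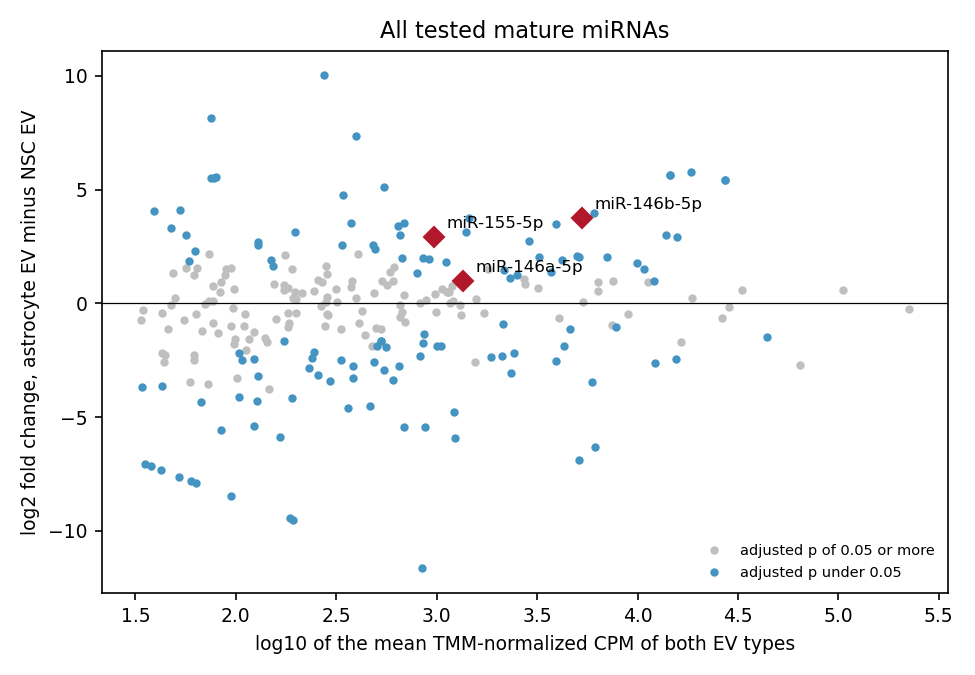
Log2 difference between EV types of the 256 tested mature miRNAs (astrocyte EVs minus NSC EVs) against the log10 of their mean CPM, with blue points for an adjusted p under 0.05 and red diamonds for the 3 miRNAs of interest. miR-146b-5p at 3.77 and miR-155-5p at 2.93 lie in the upper part and miR-146a-5p at 0.99 among miRNAs of both colors.

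By size of the difference miR-146b-5p was 17th, miR-155-5p 29th and miR-146a-5p 75th from the top of the 256 miRNAs. The plot of all tested miRNAs shows that differences of this size were found at low and at high levels. In bulk EV RNA, more vesicles from one cell type and more copies of a miRNA per vesicle cannot be told apart.

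A share of mature miRNA counts needs no normalization factor. The share of miR-146b-5p was 0.965% ± 0.308 for astrocyte EVs and 0.0762% ± 0.0304 for NSC EVs (SD, n = 3 each). An exact permutation test, two-sided here and below, gave p = 0.1, and no smaller p can be had from groups of 3. The lowest astrocyte EV share was 0.694% in replicate 3 (0.669% to 0.720% by Wilson's method at 95%) and the highest was 1.30% in replicate 1 (1.25% to 1.35%), beside 0.0526% to 0.111% for NSC EVs. miR-155-5p took 0.172% ± 0.101 and 0.0241% ± 0.010 (SD, n = 3 each, exact p = 0.1). Its lowest astrocyte EV share, 0.0556% (0.0488% to 0.0634%) in replicate 3, was above its highest NSC EV share, 0.0324% (0.0261% to 0.0401%) in replicate 1, by more than counting error. For miR-146a-5p the shares were 0.174% ± 0.0371 and 0.0981% ± 0.0583 (SD, n = 3 each, exact p = 0.2). Here the EV types overlapped, as astrocyte EV replicate 3 at 0.132% (0.121% to 0.143%) was below NSC EV replicate 1 at 0.163% (0.148% to 0.179%), so that the separation of its libraries seen above depended on TMM.

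Shares of all counts outside hairpin rows are shares of counts and not of reads. On this scale miR-146b-5p was still higher in every astrocyte EV library (0.00262% ± 1.36e-04 against 3.57e-04% ± 2.11e-04, SD, n = 3 each, exact p = 0.1). miR-155-5p had 4.55e-04% ± 2.46e-04 against 1.15e-04% ± 6.57e-05 (SD, n = 3 each, exact p = 0.1). miR-146a-5p had nearly the same mean in both EV types, 4.85e-04% ± 7.04e-05 and 4.78e-04% ± 3.66e-04 (SD, n = 3 each, exact p = 1). Fitted on library sizes of all these rows with no TMM, the calls over all tested miRNAs moved from 57 higher and 66 lower to 32 higher and 96 lower. In that fit the log2 difference was 0.02 for miR-146a-5p (adjusted p = 0.977 by edgeR) and 2.875 for miR-146b-5p (adjusted p = 0.00211 by edgeR). For miR-155-5p it was 1.98 (adjusted p = 0.0388 by edgeR). The median log2 difference of all tested miRNAs moved from -0.06 to -0.92. Relative to that median the members stood at 0.94 (miR-146a-5p), 3.80 (miR-146b-5p) and 2.90 (miR-155-5p).

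The balance between the 2 miR-146 genes was compared within each library, which removes depth and scaling. miR-146b-5p made up 86.8%, 82.4% and 84.1% of miR-146a-5p plus miR-146b-5p counts in astrocyte EV replicates 1, 2 and 3, and 40.4%, 39.3% and 56.6% in NSC EV replicates 1, 2 and 3. The Wilson 95% intervals of astrocyte EV libraries lay between 80.7% and 88.0% and those of NSC EV libraries between 33.7% and 63.2%. The means were 84.4% ± 2.22 and 45.4% ± 9.66 (SD, n = 3 each), a difference of 38.9 percentage points that was between 35.9 and 44.5 when any single library was left out (p = 0.1 over all 6 by the exact permutation test). The sources used here do not give how reads that match both sequences were assigned. With 17 shared bases at the 5′ end, reads cut short at the 3′ end could fall on either row or on both. The rows of miR-199a-3p and miR-199b-3p held the same counts, and whether reads were counted on both was not tested. With both rows summed before the fit, miR-146 as a whole had 11232 ± 1687 CPM in astrocyte EVs and 1694 ± 718 CPM in NSC EVs (SD, n = 3 each), a log2 difference of 2.73 (standard error 0.39, adjusted p = 0.00260 by edgeR).

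**Figure D3:**
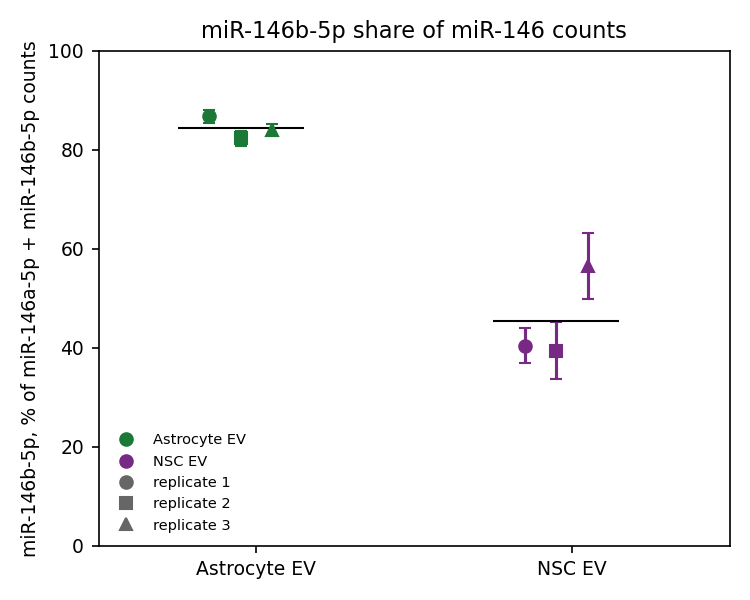
miR-146b-5p as a percentage of miR-146a-5p plus miR-146b-5p counts in each library, with 95% Wilson intervals as bars and the mean of each EV type as a black line. Astrocyte EV libraries lie between 82.4% and 86.8% and NSC EV libraries between 39.3% and 56.6%.

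The order of the 3 miRNAs also differed between the EV types when read counts were divided by the length of the mature sequence. In astrocyte EVs miR-146b-5p was 4.67 to 6.55 times miR-146a-5p and 3.96 to 13.0 times miR-155-5p, above both in 3 of 3 libraries. miR-146a-5p was 0.930, 0.848 and 2.47 times miR-155-5p in astrocyte EV replicates 1, 2 and 3, so that these neighbors in the order changed places between libraries. In NSC EVs miR-146b-5p was 0.678, 0.648 and 1.30 times miR-146a-5p, again with no fixed order. miR-155-5p was the lowest of the 3 in every NSC EV library, with miR-146a-5p at 3.14 to 5.26 times its level. The ratio of miR-146a-5p to miR-155-5p was lower in all astrocyte EV libraries than in any NSC EV library (exact two-sided permutation test on log2 ratios, p = 0.1), whereas the ratio of miR-146b-5p to miR-155-5p overlapped (p = 0.2, likewise exact).

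Fitted among 258 hairpin rows, the same counts gave log2 differences of 3.88 for mir-146b (adjusted p = 6.40e-04 by edgeR), 3.0 for mir-155 (adjusted p = 0.00554) and 1.08 for mir-146a (adjusted p = 0.0814), where 23.3% of hairpin rows were called higher. These rows repeat the mature reads and are no second measurement.

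**Figure D4:**
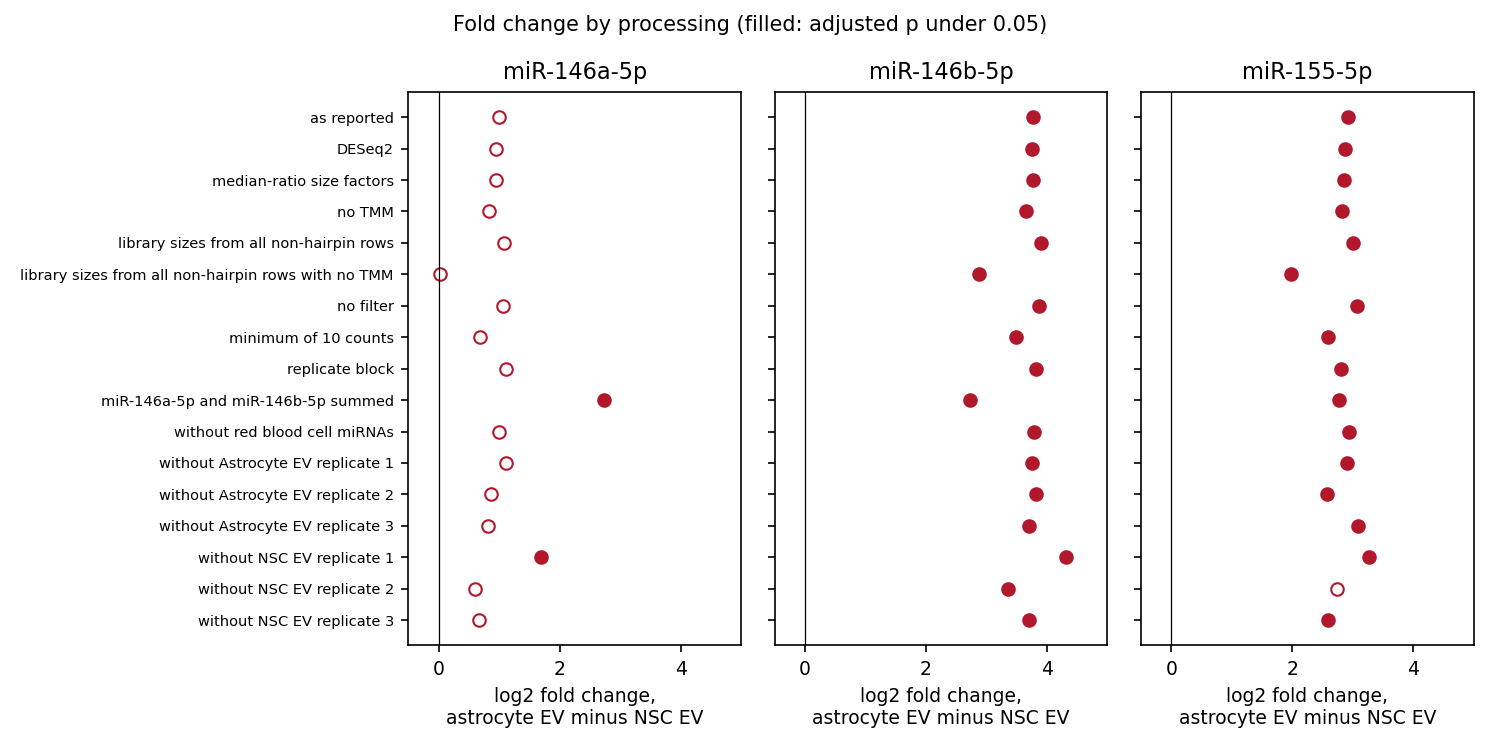
Log2 difference (astrocyte EVs minus NSC EVs) of the 3 miRNAs under each way of processing, with filled points for an adjusted p under 0.05. All points of miR-146b-5p are filled, miR-155-5p has an open point at 2.74 without NSC EV replicate 2, and miR-146a-5p is filled at 1.69 without NSC EV replicate 1 and where it stands for the summed rows at 2.73.

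The miRNAs whose normalized levels followed each member most closely were found by Pearson's r of log2(CPM + 1) over the 6 libraries, where the difference between the EV types is a large part of any r. For miR-146b-5p these were miR-125b-2-3p (r = 0.994), miR-22-3p (0.990) and miR-191-5p (0.990). For miR-155-5p they were miR-199a-3p and miR-199b-3p, which hold the same counts (r = 0.990), and miR-21a-5p (0.987). For miR-146a-5p they were miR-30a-5p (r = 0.983), miR-378b (0.971) and miR-140-3p (0.951). Among the members r was 0.843 between miR-146a-5p and miR-146b-5p, 0.864 between miR-146a-5p and miR-155-5p and 0.914 between miR-146b-5p and miR-155-5p.

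The fall of miR-155-5p in astrocyte EV replicate 3 was shared by mesenchymal marker miRNAs, which are known from fibroblasts and smooth muscle. Summed over miR-143-3p, miR-145a-5p, miR-199a-3p and miR-214-3p, these came to 91133, 97249 and 6600 CPM for astrocyte EV replicates 1, 2 and 3 and to 860.0 to 1861 CPM for NSC EVs, with miR-214-3p at 0 in replicate 3 and in all NSC EVs. miR-146a-5p and miR-146b-5p were also lowest in that library of astrocyte EVs, but only slightly so on the normalized scale. As shares of mature miRNA counts, miR-146b-5p had 0.694% there against 1.30% in replicate 1, and miR-146a-5p 0.132% against 0.198%. Without astrocyte EV replicate 3 the log2 difference of miR-155-5p was 3.09 (adjusted p = 0.00104 by edgeR) and that of miR-146b-5p 3.71 (adjusted p = 1.98e-04 by edgeR). Other miRNAs outside that list also fell in astrocyte EV replicate 3. In astrocyte EV replicates 1, 2 and 3, miR-127-3p had 11159, 8928 and 1684 CPM and miR-34c-5p 3169, 3310 and 1086 CPM. miR-9-5p rose, with 1245, 1955 and 48244 CPM. The part of mesenchymal cells in the level of miR-155-5p was not tested.

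miR-155-5p and miR-146a-5p are also abundant in microglia and white blood cells, and the levels of marker miRNAs of these cells are given here. miR-223-3p, of myeloid cells, was at 0, 5.04 and 15.7 CPM in astrocyte EV replicates 1, 2 and 3, miR-142a-3p was at 28.5, 0 and 44.1 CPM, and neither had a count in NSC EVs. miR-142a-5p was higher in astrocyte EVs (133, 700 and 230 CPM against 23.5 to 58.4 CPM, log2 difference 3.15, adjusted p = 0.0145 by edgeR), and miR-150-5p, of lymphocytes, was at 0 in all astrocyte EVs and at 46.9 to 85.4 CPM in NSC EVs. Summed over these 4 miRNAs the level was 162 to 705 CPM in astrocyte EVs and 70.4 to 144 CPM in NSC EVs. Of 9 microglial marker genes 0 passed edgeR's test on gene rows in either direction, which at 5.54% of all rows called higher is no result about so few genes. C1qa alone had an unadjusted p under 0.05, with a log2 difference of -2.03. Red blood cell miRNAs (miR-451a, miR-144-3p and miR-486a-5p) summed to 19354 to 101782 CPM in astrocyte EVs and 930 to 1633 CPM in NSC EVs, with miR-451a at 0 in NSC EVs, and the endothelial miR-126a arms to 69.2 to 191 and 934 to 1730 CPM. The neuronal miR-124-3p was at 0 in astrocyte EVs and at 154 to 705 CPM in NSC EVs. The part of these cells, or of the serum in the astrocyte medium, in the marker levels and in the members' levels was not tested. As the NSC medium is not given, effects of the medium cannot be told apart from the EV type. Without red blood cell miRNAs the members' log2 differences were 1.0, 3.78 and 2.94 in the order of their names.

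Other miRNAs linked to NF-kB or TLR signaling were called in both directions, more of them lower than higher in astrocyte EVs. Of 20 listed, 16 passed the low-count filter, of which 2 were higher in astrocyte EVs, 8 were lower and 6 did not pass the test (edgeR, where 25.8% of all tested miRNAs were called lower). The median log2 difference of the 16 was -1.61, beside -0.06 for all 256. The 8 lower calls are not separate observations. Of these, miR-181a-5p and miR-181b-5p are neighbors on chromosome 1, and miR-181c-5p is related to them. miR-19a-3p and miR-19b-3p are neighbors on chromosome 14. Leaving out 1 library at a time gave 2 to 3 higher and 5 to 9 lower, with 5 lower without astrocyte EV replicate 1, NSC EV replicate 2 or NSC EV replicate 3.

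The 2 that were higher were miR-21a-5p, which is induced in activated glia and macrophages, and let-7e-5p, a Let-7 member known to repress Tlr4. For miR-21a-5p the levels were 30656, 36699 and 16287 CPM in astrocyte EVs and 2828 to 4340 CPM in NSC EVs (log2 difference 2.91, adjusted p = 0.00271 by edgeR). let-7e-5p stood at 15410 ± 4600 and 4571 ± 1084 CPM (SD, n = 3 each), with a log2 difference of 1.75. The astrocyte EV libraries of both lay above all NSC EV libraries.

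Among the 8 that were lower, miR-181b-5p and miR-181c-5p, repressors of NF-kB transport and of Tnf, had log2 differences of -2.43 (adjusted p = 0.00505 by edgeR) and -2.52 (adjusted p = 0.0143 by edgeR). miR-181c-5p lost its call without replicate 1 of astrocyte EVs or any single NSC EV library (adjusted p = 0.0560 to 0.110 by edgeR). The related miR-181a-5p was the most abundant of the 8, at 23348 ± 9758 CPM in astrocyte EVs and 64781 ± 25024 CPM in NSC EVs (SD, n = 3 each, log2 difference -1.47). It lost its call without any single library other than astrocyte EV replicate 3. With TMM on library sizes of all non-hairpin rows miR-181a-5p was not called either (adjusted p = 0.0696 by edgeR). miR-19a-3p and miR-19b-3p, which repress the NF-kB inhibitors Tnfaip3 and Cyld, had -5.59 and -3.40, and miR-19a-3p had 0, 2 and 0 counts in astrocyte EVs. miR-301a-3p had a log2 difference of -2.75 and miR-16-5p of -1.90. miR-125b-5p, at -1.74 (adjusted p = 0.0280 by edgeR), had adjusted p of 0.0525 to 0.0727 and so lost its call in 4 of 6 fits that each left out a library, namely replicates 1 and 2 of astrocyte EVs and replicates 2 and 3 of NSC EVs.

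The 6 that did not pass were miR-9-5p, miR-10a-5p, miR-15a-5p, miR-125a-5p, miR-132-3p and let-7i-5p. miR-9-5p, which is abundant in neural progenitors and represses Nfkb1, was at 1245, 1955 and 48244 CPM in astrocyte EVs and 97177 to 132450 CPM in NSC EVs (log2 difference -2.69, adjusted p = 0.130 by edgeR). Without astrocyte EV replicate 3 this was -6.29 (adjusted p = 1.28e-05 by edgeR). It was also called lower by DESeq2 (-2.75, adjusted p = 0.0137), with no low-count filter (-2.83) and on library sizes of all non-hairpin rows with no TMM (-3.47). miR-132-3p, which is induced by TLR signaling, had -1.14 (adjusted p = 0.0728 by edgeR) and lay near the threshold, being called lower in 5 of the alternatives (adjusted p = 0.0245 to 0.0473). The other 4 had -0.99 (miR-15a-5p), 0.24 (let-7i-5p), 0.50 (miR-125a-5p) and 0.80 (miR-10a-5p). The 4 below the filter were miR-147-3p, with 0 counts in astrocyte EVs and 3 in NSC EVs, miR-212-3p with 3 and 15, miR-223-3p with 6 and 0, and miR-199a-5p, which had 189, 212 and 8 counts in astrocyte EVs and 1, 0 and 0 in NSC EVs.

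**Figure D5:**
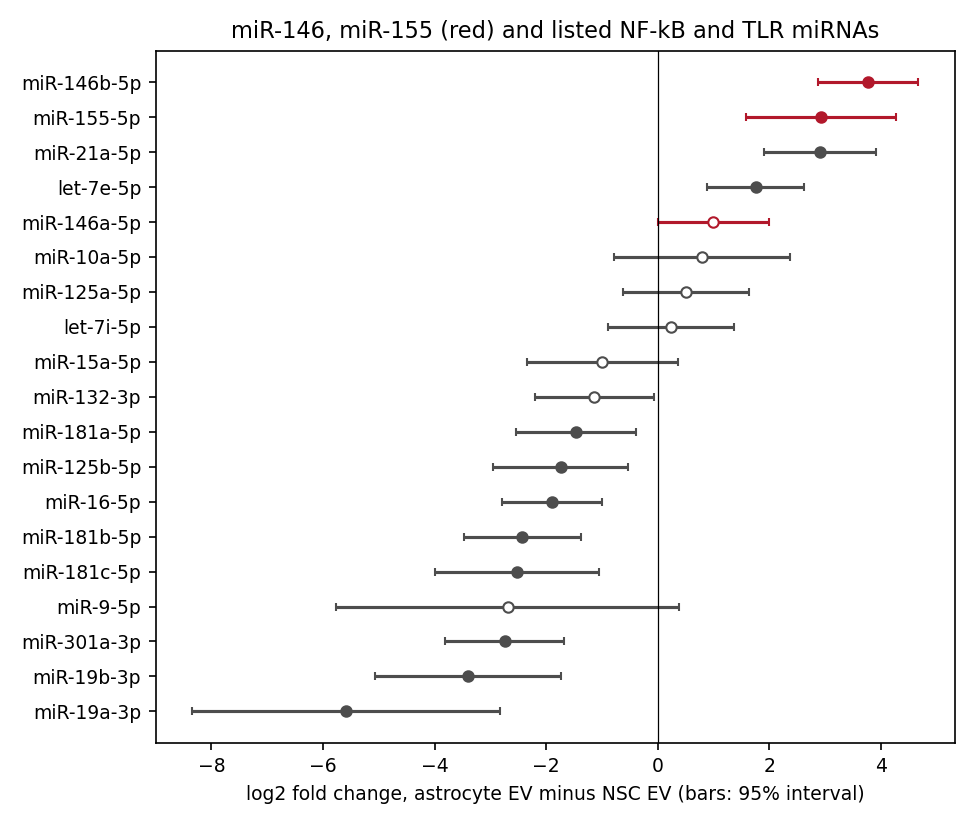
Log2 difference (astrocyte EVs minus NSC EVs) with 95% intervals of miR-146a-5p, miR-146b-5p and miR-155-5p (red) and of the 16 tested NF-kB and TLR miRNAs (gray), with filled points for an adjusted p under 0.05. miR-146b-5p and miR-155-5p stand at the top, next to miR-21a-5p at 2.91, and the miR-19 pair at the bottom.

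Fragments of mRNAs of the NF-kB pathway and of known miR-146 and miR-155 targets were also counted in these EVs. Of 33 listed genes, the host gene Mir155hg included, 30 were tested among 41308 non-hairpin rows, and 0 were called by edgeR's quasi-likelihood test, where 5.54% of all rows were called higher and 4.24% lower. At an unadjusted p under 0.05 there were 7, of which 4 were higher and 3 lower in astrocyte EVs. The 17 pathway genes had a median log2 difference of -0.27, the 6 miR-146 targets of 0.65 and the 7 tested miR-155 targets of -0.88, beside -0.04 over all rows.

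Of the pathway genes the row with the most counts was Ikbkg, a subunit of the IKK complex, with 244, 417 and 1479 counts in astrocyte EVs and 293, 229 and 206 in NSC EVs (log2 difference 0.88, adjusted p = 0.133 by edgeR). Nfkb1, which encodes a subunit of NF-kB itself, had 127, 179 and 386 against 249, 533 and 259 counts (log2 difference -1.02, adjusted p = 0.0982 by edgeR). Among miR-146 targets Irak2, a kinase of TLR signaling, had the most counts, 254, 471 and 3165 against 429, 304 and 301, most of them in astrocyte EV replicate 3 (log2 difference 1.02, adjusted p = 0.231 by edgeR). Numb, a regulator of Notch signaling, had a log2 difference of 0.73 (adjusted p = 0.158 by edgeR), and Card10, an adaptor upstream of the IKK complex, had 369, 453 and 347 against 86, 173 and 119 counts (log2 difference 1.53, adjusted p = 0.0877 by edgeR). As normalized CPM, Card10 overlapped between the EV types through astrocyte EV replicate 3, and it was called without that library (1.92, adjusted p = 0.0226 by edgeR). Irak1 and Traf6, the classical targets, had 11 to 34 and 41 to 187 counts in astrocyte EVs, with log2 differences of -1.12 (adjusted p = 0.220 by edgeR) and 0.57 (adjusted p = 0.288 by edgeR). Among miR-155 targets Jarid2, a chromatin regulator, had the most counts (log2 difference 0.91, adjusted p = 0.157 by edgeR), and Socs1 had 6 to 56 counts and was below the filter. The activity of NF-kB in the cultured cells was not measured in these libraries, and Mir155hg and Spi1 were not analysed here.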

How the data were processed

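Small RNAs of 3 astrocyte EV and 3 NSC EV libraries were analyzed from the raw counts that the authors deposited, 1 column per library and not normalized. Per the labels, cutadapt, FastQC, Bowtie, Bowtie2, SAMtools, bedtools, DESeq and the mm10 build were used, with no versions. How multiply mapping reads and strand were treated is not given. Library kits differ between the sources (Illumina in the labels, CleanTag in the series record). The deposited tables of the authors' own comparison, holding group means, fold changes and adjusted p-values, were not used.

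Mature miRNA rows (902) gave the library sizes. Counts were tested across all mature miRNAs with edgeR 4.0.16 in R 4.3.3 (TMM, filter by group, quasi-likelihood test, Benjamini-Hochberg, calls at an adjusted p under 0.05). The standard error is the log2 difference divided by the root of the test statistic. Hairpin rows (788) and all non-hairpin rows were fitted likewise. Shares were compared by exact two-sided permutation tests (scipy 1.17.1) with 95% Wilson intervals. TMM factors ran from 0.796 to 1.16. Code was tested on simulated data.

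The members and the lists were chosen with earlier results of these data known. Named miRNAs were the members, listed miRNAs of at least 100 CPM in either group, marker miRNAs, and the 3 most correlated with each member. Named gene rows were those of highest mean count in each list. Let-7e-5p and other near-identical miRNAs may share reads. miR-127-3p, miR-34c-5p, Nfkb1, Numb, Card10, Irak1, Traf6, Socs1 and the listed miRNAs under the filter were named after their values were seen. Library sizes of all non-hairpin rows with no TMM and the correlation of deviations were added after seeing the data. Columns that could not be matched to a library numbered 0.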

Additional observations from a re-analysis of the deposited data

How the results depend on the processing

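miR-146b-5p stayed past the test under every alternative run (log2 difference 2.875 to 4.31 for its own row, and 2.73 for the summed miR-146 row). miR-155-5p did so except without NSC EV replicate 2 (2.74, adjusted p = 0.0522 by edgeR). Its lowest log2 difference was 1.98, on library sizes of all non-hairpin rows with no TMM (adjusted p = 0.0388 by edgeR). DESeq2 1.42.0 gave 0.95 (adjusted p = 0.198), 3.76 and 2.87 for miR-146a-5p, miR-146b-5p and miR-155-5p. miR-146a-5p passed only as the summed miR-146 row (2.73) and without NSC EV replicate 1 (1.69); its fit on library sizes of all non-hairpin rows with no TMM gave 0.02. With single libraries left out, log2 differences ran from 0.61 to 1.69 (miR-146a-5p), 3.36 to 4.31 (miR-146b-5p) and 2.57 to 3.27 (miR-155-5p), and for the hairpin rows from 0.76 to 1.70, 3.63 to 4.28 and 2.67 to 3.32, with mir-146a called without NSC EV replicate 1. Calls over all mature miRNAs then ran from 34 (without NSC EV replicate 2) to 69 higher and 45 to 93 lower, those of the NF-kB and TLR list from 2 to 3 and from 5 to 9, and NF-kB gene rows called higher from 0 to 1. On library sizes of all non-hairpin rows with no TMM, 32 miRNAs were higher and 96 lower, and of the list 1 was higher and 10 lower, with let-7e-5p no longer called (0.98, adjusted p = 0.112 by edgeR). In shares of all non-hairpin counts the log2 difference moved from 0.97 to 0.31 for miR-146a-5p, from 3.69 to 3.03 for miR-146b-5p and from 2.67 to 2.01 for miR-155-5p. Among listed miRNAs that were not called, the sign turned for miR-10a-5p (-0.17), miR-125a-5p (-0.27) and let-7i-5p (-0.66) on those library sizes with no TMM, and for let-7i-5p also at a minimum of 10 counts (-0.017) and without astrocyte EV replicate 3 (-0.47) or NSC EV replicate 2 (-0.16). Where the cause of a change is not given by the rows or libraries left out, the cause was not tested.

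Libraries with the same replicate number deviated together with r of 0.052, 0.18 and 0.057 over 150 miRNAs. Those with unlike numbers had r from -0.13 to 0.052. With 3 libraries a group, these values cannot decide whether the numbers pair the libraries. With the replicate number as a block, 45 miRNAs were higher and 55 lower, and the members had log2 differences of 1.11, 3.81 and 2.81 with the same calls, while miR-9-5p was called lower (-4.87, adjusted p = 0.0316 by edgeR). The 3p arm comparison was not run, since no counts of these arms were used here. With 3 libraries a group, differences of miR-146a-5p up to 3.96-fold lie within its interval.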

Other observations

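The miRNAs most like each member within the EV types were also looked up. After the mean of each EV type was taken away, the deviations of miR-155-5p over the 6 libraries were most like those of miR-152-3p (Pearson's r = 0.987), miR-21a-5p (0.985) and miR-34a-5p (0.982), all of which were higher in astrocyte EVs, with log2 differences of 2.01, 2.91 and 2.58. Those of miR-146b-5p were most like miR-378d (0.986) and miR-378c (0.913) and miR-1843b-3p (0.860), and those of miR-146a-5p most like miR-421-3p (0.994), miR-30a-5p (0.964) and miR-378b (0.954). Like miR-155-5p, its matches were lowest in replicate 3 of astrocyte EVs. In astrocyte EV replicates 1, 2 and 3, miR-152-3p had 1753, 1884 and 494 CPM and miR-34a-5p 936, 1391 and 164 CPM. The best matches among 256 tested miRNAs over 6 libraries have a high r by selection alone. These values were looked up after the data were seen, rest on 6 libraries that share depth and normalization, and are descriptions only.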
